A study of Mus musculus with 9 samples.

Results

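The SPARC family comprises secreted proteins that carry a follistatin-like module and, in most members, an extracellular calcium-binding module, and it was examined here through 8 of its genes: Sparc, Sparcl1, Smoc1, Smoc2, Spock1, Spock2, Spock3 and Fstl1. All 8 were found by symbol among the 55487 genes of a count table. The cells are labelled MCEC, the name of an established endothelial line from mouse heart. Of the 8 members, 4 had enough counts to be fitted among 16955 tested genes. The members were chosen by family, with the levels in these 3 groups already known, among them the large difference of Smoc1, so their differences between groups are given as a description, with fold changes and errors but no p-value. RNA was selected for poly-A tails and sequenced in 3 groups of 3 libraries: unmodified cells (WT), cells with a knockdown of Zbtb46 (KD) and cells with enforced overexpression of Zbtb46 (OE). Zbtb46 encodes a transcription factor with a BTB domain and zinc fingers. How the knockdown and the overexpression were made, and whether each line was a clone or a pool, is not given in the sources used here, and no library of cells with an empty vector was analysed here. Nor do the labels say whether the 3 libraries of a group came from separate cultures, so errors measure the spread between these libraries, which may be technical.

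Matricellular proteins are secreted into the matrix but serve mainly to modify how cells attach and signal. SPARC, also called osteonectin, binds collagens and calcium and limits the action of several growth factors; SPARCL1, or hevin, is its closest relative. SMOC1 and SMOC2 are basement membrane proteins known as antagonists of bone morphogenetic protein (BMP) signalling, SMOC1 having been studied in endothelial cells. SPOCK1, SPOCK2 and SPOCK3 are the testicans, proteoglycans studied for their effects on membrane-type metalloproteinases and cathepsins. FSTL1 is a secreted glycoprotein that binds BMP4 and the surface protein DIP2A.

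Total counts ran from 39491828 to 55745849 per library, and ribosomal RNA genes took 7.44% to 17.3% of them in WT, 9.55% to 12.0% in KD and 14.4% to 18.2% in OE. Levels are counts scaled to library size (CPM), with sizes adjusted by the trimmed mean of M-values (TMM). Zbtb46 stood at 13.7 CPM in WT, 11.2 CPM in KD and 191 CPM in OE. By edgeR's quasi-likelihood fit, its log2 fold change against WT was -0.28 in KD (SE 0.055, adjusted p = 0.00144). In OE, by the same fit, it was 3.81 (SE 0.039, adjusted p = 3.22e-21). Adjustment was by Benjamini-Hochberg over all tested genes. Each SE comes from the spread of log2 CPM between libraries, not from that fit. The labelled cell type was checked against marker lists, some of whose genes are named after their values were seen. Of 12 endothelial markers, Erg had 0 CPM in every group, Cdh5 and Pecam1 lay at or below 0.150 CPM on average in every group, and the summed level of the list was 26.2 to 26.8 CPM in WT, 25.4 to 29.5 CPM in KD and 15.0 to 19.2 CPM in OE. Other endothelial markers were measured at low levels: Ptprb stood at 11.1 CPM in WT, 19.6 CPM in KD and 3.09 CPM in OE, and Ecscr at 4.73 CPM in WT, 1.51 CPM in KD and 8.18 CPM in OE. In WT, Egfl7 stood at 5.18 CPM, Kdr at 2.64 CPM, Tek at 1.84 CPM and Esam at 0.612 CPM. Tie1, Vwf and Emcn had at most 9, 6 and 2 counts in any library. Of 11 fibroblast and mural markers, Lum was at or under 3 counts in every library, and the list summed to 5149 to 5726 CPM in WT, 4891 to 4954 CPM in KD and 4064 to 4156 CPM in OE. Col1a1 made up most of that sum, at 5259 CPM in WT, and Dcn stood at 98.0 CPM in WT, 97.8 CPM in KD and 36.7 CPM in OE. Of the others in WT, Thy1 stood at 32.4 CPM, Pdgfra at 17.1 CPM, Acta2 at 7.73 CPM and Pdgfrb at 3.47 CPM. Des stood at 0.855 CPM and Tagln at 0.436 CPM in WT, and Rgs5 and Cspg4 had at most 4 and 12 counts in any library. Of the leukocyte list, Ptprc, Itgam and Adgre1 were at or under 3 counts in every library, while Cd68 stood at 3.76 CPM in WT, 4.86 CPM in KD and 3.40 CPM in OE and supplied most of the list's sum of 2.82 to 5.10 CPM. A cardiomyocyte list of 6 genes summed to 2.05 to 3.28 CPM over the libraries, and an epithelial list of 4 genes to 1.62 to 3.13 CPM. Their highest members in WT were Myl7, at 1.69 CPM, and Krt8, at 2.36 CPM. The endothelial markers were thus absent or at low levels while Col1a1 and Dcn were higher, so the markers did not bear out the endothelial label. Levels given below are those of cells labelled MCEC, whose type was not settled here. In bulk RNA, fewer cells of a type and less RNA per cell cannot be told apart.

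Among the 8 members, 3 were expressed at levels that could be followed in every group: Sparc, Fstl1 and Smoc1. Compared per length, as CPM per kb of annotated exon, Sparc stood at 679 ± 10.6 in WT (SD, n = 3) and ranked 29 among the 27684 genes with counts there. Fstl1 stood at 70.1 ± 2.70 CPM per kb and ranked 555, and Smoc1 at 4.64 ± 0.216 CPM per kb and ranked 7609. Spock2 followed at 0.0606 ± 0.0134 CPM per kb. The order of these 4 genes was the same in the 3 groups, and the gaps between neighbours exceeded the spread between libraries. In OE, Sparc ranked 50, Fstl1 ranked 976 and Smoc1 ranked 16800 of 28581 genes with counts.

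**Figure D1:**
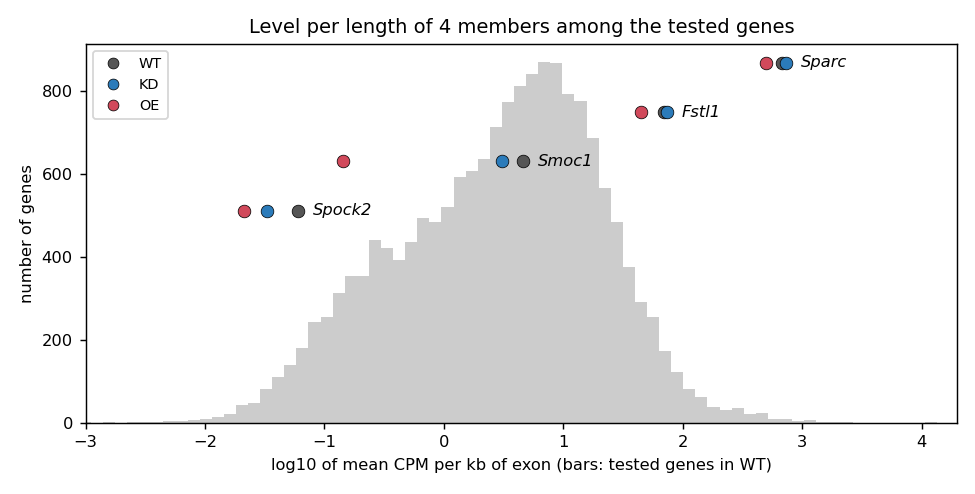
Mean level per length of Sparc, Fstl1, Smoc1 and Spock2 in WT, KD and OE (points; horizontal axis, log10 of CPM per kb of exon; the height of the points has no meaning) over a histogram of the tested genes in WT (grey bars; vertical axis, number of genes). Sparc lies at the far right of the distribution at 679 CPM per kb in WT, and the OE point of Smoc1 lies far to the left of its WT and KD points.

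Sparc spans chr11:55394500-55423183 of GRCm38 (minus strand) and Fstl1 spans chr16:37776873-37836514 (plus strand). GENCODE M21 annotates no other gene over either of them. Both were lower in OE than in WT, and the 250 bases before their RefSeq start sites (GRCm38.p6) were searched for that reason. These windows run over chr11:55420081-55420330 for Sparc and chr16:37776805-37777054 for Fstl1, on the strand of each gene. They lie before the RefSeq starts, but GENCODE M21 has transcripts that start further upstream, so that 231 bases of the Sparc window and 182 bases of the Fstl1 window are untranslated exon of at least 1 transcript. The windows were searched on both strands for 4 motifs. The GC box was GGGCGG. The TATA box was searched as TATAAA. For AP-1 the letters TGANTCA were used. The E-box was taken as CANNTG, and no motif overlapped another here. Short stretches around 3 of the 4 matches are shown 5′ to 3′ to let the motifs of both genes be compared, with the match in capitals. The Sparc sites lie at chr11:55420125-55420150 and chr11:55420081-55420100 (minus strand), and the Fstl1 site at chr16:37777023-37777048 (plus strand).
Sparc E-box, farther: gtgattccagCAGCTGttccagccct
Sparc E-box, nearer: agccccagaaCAGATGagac
Fstl1 GC box, nearer: gggtcttaagGGGCGGcgagcccagg
The Sparc window held 2 E-boxes, which begin 60 and 10 bases before the RefSeq start, and 4 CpG dinucleotides, with a GC content of 54%. The Fstl1 window held 2 GC boxes, which begin 46 and 22 bases before the start, and 16 CpG dinucleotides, with a GC content of 68%. Neither window held a motif found in the other. Of 32851 promoter stretches of this length in the RefSeq table, 66.2% held an E-box, 32.7% a GC box, 12.4% a TATA box and 6.75% an AP-1 site, and the median was 6 CpG dinucleotides and a GC content of 52.4%. The table also matched Spock1, Spock2 and Spock3; it matched 5 members in all, and Smoc1, Smoc2 and Sparcl1 are not shown.

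Sparc (ENSMUSG00000018593) was the dominant transcript of the family. It stood at 2568, 2534 and 2614 CPM in the 3 WT libraries, at 2710, 2798 and 2828 CPM in KD and at 1835, 1874 and 1956 CPM in OE. The 3 OE libraries were the lowest and the 3 KD libraries the highest, with no overlap between any groups. Mean levels were 2572 ± 40.2 CPM in WT, 2779 ± 61.5 CPM in KD and 1888 ± 61.7 CPM in OE (SD, n = 3 each). Against WT, the level in OE fell by 26.6%, a log2 fold change of -0.45 (SE 0.030). In KD the level was 8.03% above WT, a log2 fold change of 0.11 (SE 0.023). That difference passed the threshold with all 9 libraries but not without WT replicate 1 (0.11), KD replicate 2 (0.10), KD replicate 3 (0.099) or OE replicate 2 (0.11), as log2 fold changes. It also did not pass with upper-quartile scaling (0.082), with library totals alone (0.076) or with only the 2 groups compared (0.11).

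Fstl1 (ENSMUSG00000022816) had its mean levels in the same order of groups. It stood at 340.2, 359.5 and 334 CPM in WT, at 362, 355 and 378 CPM in KD and at 217, 220.3 and 224 CPM in OE. The OE libraries lay below all others, whereas the WT and KD libraries overlapped. Mean levels were 345 ± 13.3 CPM in WT, 365 ± 12.0 CPM in KD and 221 ± 3.56 CPM in OE (SD, n = 3 each). Against WT, the level in OE fell by 36.0%, a log2 fold change of -0.64 (SE 0.035). The log2 fold change of 0.084 (SE 0.042) in KD did not pass the threshold, although it did without WT replicate 2 (0.12).

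The ratio of Sparc to Fstl1 counts within a library does not depend on how libraries are scaled. In WT it averaged 7.47 ± 0.393, in KD 7.61 ± 0.233 and in OE 8.56 ± 0.142 (SD, n = 3 each). The OE libraries, at 8.44 to 8.72, lay above those of WT, at 7.05 to 7.83, and of KD, at 7.47 to 7.88, which overlapped. Fstl1 was thus lower relative to Sparc in OE than in the other groups, while both were lower in CPM. The family as a whole took 0.281% to 0.311% of all counts of a library in WT, 0.311% to 0.318% in KD and 0.206% to 0.207% in OE. Sparc alone supplied 87.1% to 89.7% of the family's counts in every library.

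Smoc1 (ENSMUSG00000021136) differed most between groups. It spans chr12:81026808-81186414 of GRCm38 (plus strand), where the microRNA gene Mir3067 overlaps it on the same strand. It had 641, 917 and 732 counts in WT, 565, 404 and 521 counts in KD and 20, 32 and 19 counts in OE. In the same order these were 16.9, 15.4 and 16.4 CPM in WT, 11.2, 10.1 and 10.7 CPM in KD and 0.426, 0.646 and 0.422 CPM in OE. The groups followed the order WT, KD, OE from high to low without overlap, so that Smoc1 was lower in both modified lines, which are compared with the same WT libraries. In KD the level fell by 34.2% from WT, a log2 fold change of -0.60 (SE 0.057). In OE the mean CPM was 32.6-fold below WT, and the fitted log2 fold change was -5.01 (SE 0.19). Only 13 of the 16955 tested genes lay further below WT. The remaining OE counts lay above the floor of 3 counts in each library, and their 95% exact Poisson intervals, which cover counting error only, ran from 0.254 to 0.912 CPM over the 3 libraries. Sparc counts per Smoc1 count, again free of scaling, were 159 ± 6.30 in WT, 261 ± 17.5 in KD and 3946 ± 920 in OE (SD, n = 3 each).

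**Figure D2:**
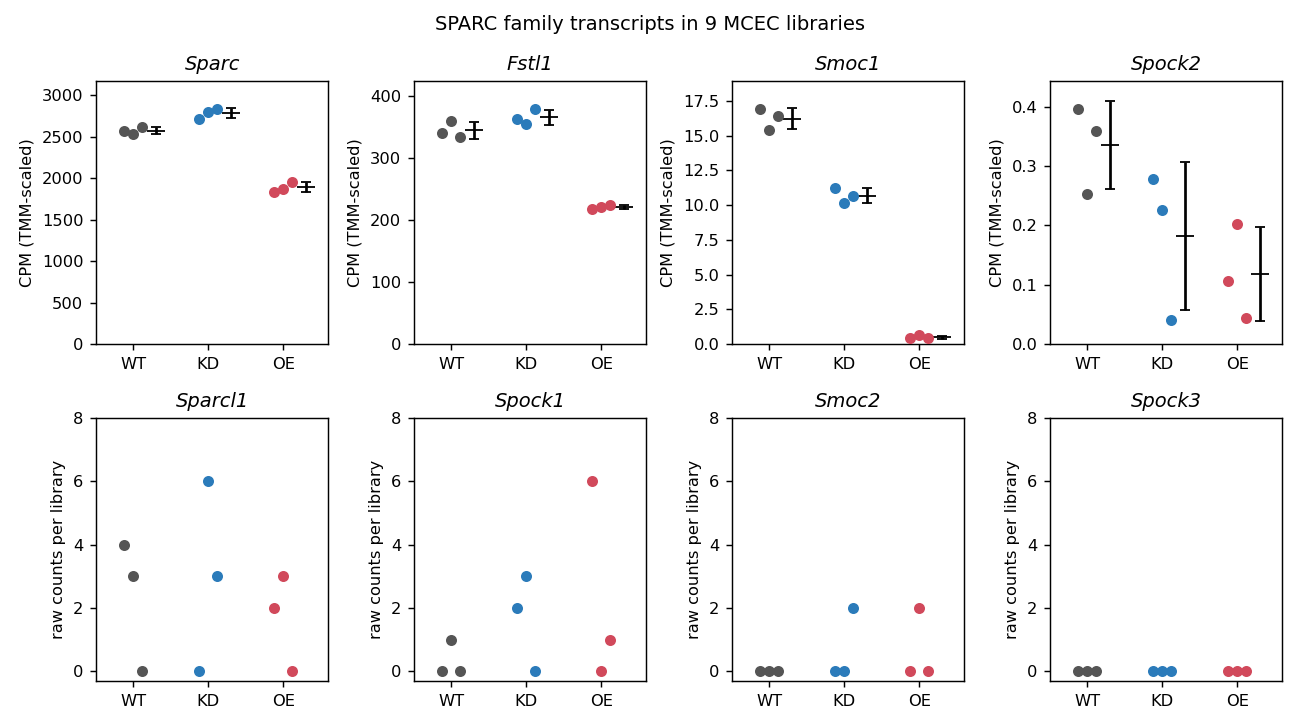
Levels of the 8 members in the 9 libraries by group: CPM with mean ± SD (bars) for Sparc, Fstl1, Smoc1 and Spock2 in the top row, and raw counts for Sparcl1, Spock1, Smoc2 and Spock3 in the bottom row. The OE points of Sparc, Fstl1 and Smoc1 lie below all WT and KD points, and no library exceeds 6 counts in the bottom row.

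The testicans and the closest relatives of Sparc and Smoc1 were at the limit of detection. Spock2 (ENSMUSG00000058297; chr10:60106219-60135198, plus strand) had 15, 15 and 16 counts in WT, 14, 9 and 2 in KD and 5, 10 and 2 in OE. It entered the tests only through its WT libraries, so a lower value elsewhere is partly built into its selection. Its OE libraries, at 0.0445 to 0.202 CPM, lay below the WT libraries, at 0.252 to 0.395 CPM, and its KD libraries overlapped both. The log2 fold changes were -1.45 (SE 0.46) in OE and -0.86 (SE 0.63) in KD, and neither passed the threshold at this depth.

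Sparcl1, the hevin gene, had 0 to 6 counts per library, Spock1 had 0 to 6, and Smoc2 had 0 to 2, with 0 in all 3 WT libraries. Spock3 had 0 counts in all 9 libraries. The floor of 3 counts, used as the limit for a count of 0, is 0.0504 to 0.0791 CPM depending on the library. It is a one-sided limit, and the upper end of the two-sided 95% exact Poisson interval used for Smoc1 is higher at 0 counts, at 0.0620 to 0.0973 CPM. At this depth no difference between groups was detectable for these 4 genes, and no fold change is given. Genes on the opposite strand overlap Sparcl1 (Gm26703) and Smoc2 (4930474M22Rik), and use of strand in the counting is not stated, so even these few counts cannot be assigned with certainty.

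In the model over all genes, the 4 tested members were set against the share of all tested genes that passed an adjusted p of 0.05. In KD against WT, 2 members passed, Sparc higher and Smoc1 lower, where 21.3% of all genes passed, 11.0% higher and 10.4% lower. In OE against WT, 3 members passed, all lower (Sparc, Fstl1 and Smoc1), where 36.4% of all genes passed, 17.0% higher and 19.5% lower. In OE against KD the same 3 members passed, all lower, where 41.5% of all genes passed, 19.4% higher and 22.1% lower. Their log2 fold changes in that comparison were -0.56 (SE 0.033) for Sparc, -0.73 (SE 0.030) for Fstl1 and -4.41 (SE 0.19) for Smoc1. Over the 4 tested members the median log2 fold change was -0.26 in KD and -1.05 in OE against WT, beside -0.0022 and 0.0020 over all genes. That median rests on Spock2, whose selection favours lower values: without it, the median of the other 3 was 0.084 in KD and -0.64 in OE. These counts only describe members listed with such differences in view. Leaving out Spock2, groups did not overlap for 2 of 3 members in KD against WT, for 3 in OE against WT and for 3 in OE against KD, as for 34.7%, 45.1% and 55.4% of all genes. With library totals alone in place of TMM, the calls over all genes changed from 1859 higher and 1758 lower to 885 and 1588 in KD, and from 2874 and 3300 to 1623 and 3506 in OE, while the signs of all 4 members stayed as given.

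**Figure D3:**
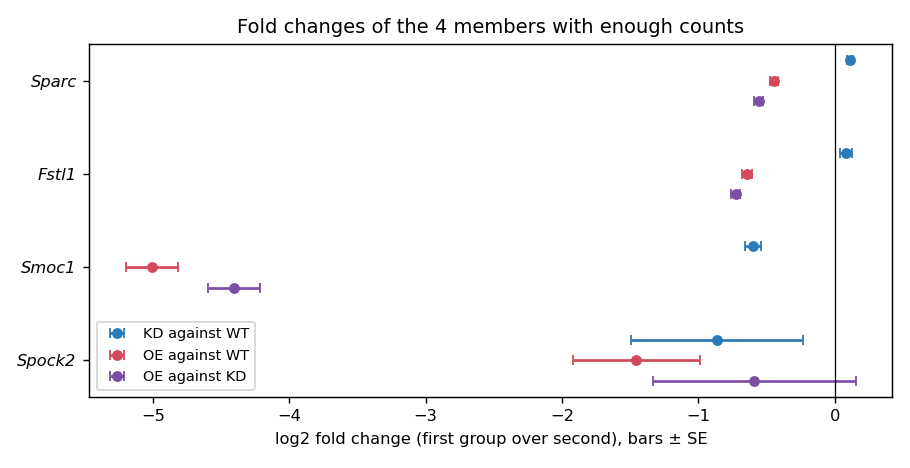
Log2 fold changes (horizontal axis; points, with bars of ± 1 SE) of the 4 tested members in KD against WT, OE against WT and OE against KD. Smoc1 lies near -5.01 in OE against WT and at -0.60 in KD against WT, Sparc and Fstl1 lie left of 0 in both OE comparisons and slightly right of 0 in KD against WT, and the bars of Spock2 are wide.

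Several measures moved with OE beside these members. The fibroblast and mural markers had 6 of 8 tested genes lower and 0 higher in OE against WT, with a median log2 fold change of -0.87, and the endothelial markers had 4 of 6 tested genes lower and 1 higher, with a median of -0.82. Over all tested genes, 19.5% were called lower and 17.0% higher in that comparison. The share of ribosomal RNA in the 3 OE libraries, 14.4% to 18.2%, overlapped that in WT, where 1 library had 17.3%. It lay above the shares in the other WT libraries, 7.44% and 10.0%, and in all KD libraries, 9.55% to 12.0%. The part of the markers in the lower levels of Sparc, Fstl1 and Smoc1 was not tested. With ribosomal RNA genes left out of the table, the log2 fold changes in OE were -0.45 for Sparc, -0.65 for Fstl1 and -5.01 for Smoc1.

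Genes around the members were then examined, beside 17.0% of all tested genes called higher and 19.5% called lower in OE against WT. Within 500 kb of Smoc1, 10 other genes were tested. In OE against WT, 1 was called higher (log2 fold change 0.13) and 1 lower (-0.16). Log2 fold changes ranged from -0.54 to 0.76, and both ends were genes not called, at 0.415 and 0.480 CPM in WT. Within 500 kb of Sparc, 10 genes were tested, of which 2 were called higher and 2 lower, from -0.58 to 0.22. Within 500 kb of Fstl1, 9 genes were tested, of which 3 were called higher and 0 lower by edgeR, opposite in direction to Fstl1 itself. The 3 called genes lay at 0.23 to 0.27. All 9 ranged from -0.095 to 0.76, the upper end being a gene not called, at 0.378 CPM in WT. The medians over windows of 20 Mb that hold these genes lay between -0.0069 and 0.057 in OE against WT, and with them subtracted the log2 fold changes were -0.45 for Sparc and -0.70 for Fstl1.

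**Figure D4:**
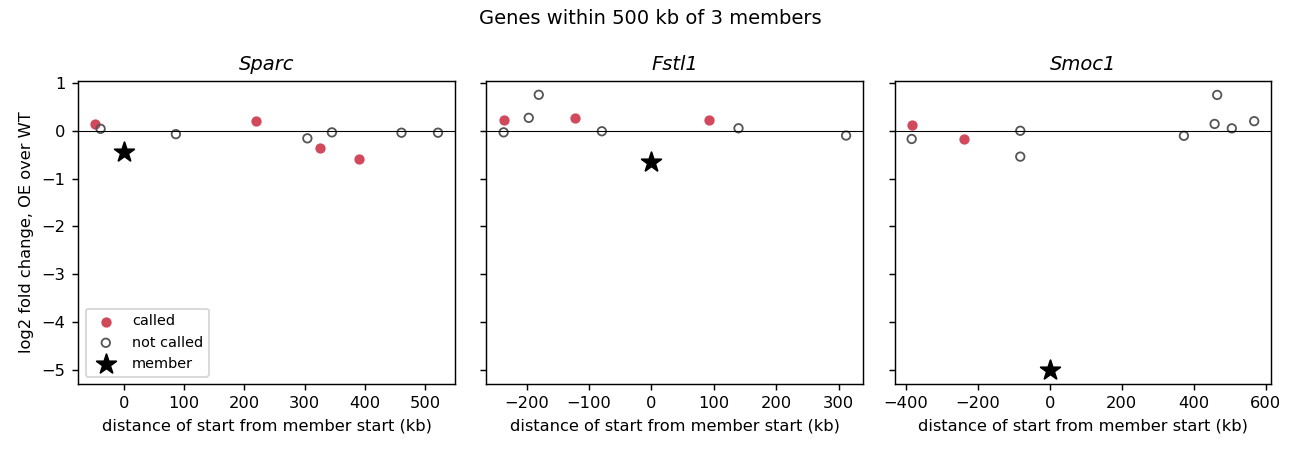
Log2 fold change in OE against WT (vertical axis) of tested genes within 500 kb of Sparc, Fstl1 and Smoc1, by the distance of their start from the member's start in kb, counted along the member's strand (horizontal axis); filled points passed the adjusted threshold and stars are the members. Neighbours of Smoc1 lie between -0.54 and 0.76, far above Smoc1 at -5.01.

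The genes whose levels over the 9 libraries were most like those of each member were found by Pearson correlation of log2 CPM among 9873 other genes whose mean reached 5 CPM in at least 1 group. The libraries fall into their 3 groups, so these values mostly reflect group means and carry no test. For Sparc they were Fscn1, an actin-bundling protein gene (r = 0.997), the lysosomal protease gene Ctsl (0.997) and Tmeff2, which encodes a membrane protein with follistatin modules (0.997). Tmeff2 stood at 21.9 ± 1.03 CPM in WT, 25.6 ± 0.858 CPM in KD and 10.4 ± 1.20 CPM in OE (SD, n = 3 each). For Fstl1 they were Ahcyl1 (0.997), the semaphorin gene Sema3a (0.997) and the mesenchymal cadherin gene Cdh11 (0.997). For Smoc1 they were the sphingomyelinase gene Smpd3, Slc38a10 and Gas1, each at 0.998. None of these 3 fell as far as Smoc1: the log2 fold changes in OE were -0.86 for Smpd3, -0.41 for Slc38a10 and -1.14 for Gas1. Fstl1 was at place 143 in the list for Sparc, with r = 0.985, and Smoc1 at place 835, with r = 0.944.

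Genes that act with the family were taken from 8 lists of binding partners, receptors, targets and related proteins, which together held 101 genes, 88 of them tested. In KD against WT, 21 were called higher and 20 lower, with a median log2 fold change of -0.00025; with library totals alone these counts were 8 and 17. In OE against WT, 16 were called higher and 44 lower, with a median of -0.20. In KD 46.6% of the tested list genes were called, where 21.3% of all tested genes were. In OE these shares were 68.2% and 36.4%, and those called lower were 50% and 19.5%. The same shares over all genes stand beside the counts of each list below. The lists were chosen with earlier results of these data known, so the counts only describe them. All calls on these lists are from edgeR's quasi-likelihood test with adjustment over all genes tested.

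Matrix proteins that SPARC binds were mostly lower in OE, as Sparc was. Of 12 tested, 8 were called lower and 2 higher, with a median log2 fold change of -0.46. Col3a1, the fibrillar type III collagen, stood at 3145 ± 151 CPM in WT, 3238 ± 38.5 in KD and 1051 ± 13.9 in OE (SD, n = 3 each). Its log2 fold change in OE was -1.58 (SE 0.042). Col4a1, a basement membrane collagen, fell by 0.89 on the log2 scale (SE 0.036). Hspg2, which encodes perlecan, rose by 0.48 (SE 0.11), and the nidogen gene Nid2 rose by 0.34 (SE 0.14). In KD, 2 of the 12 were called higher and 3 lower, with a median of -0.041. The 2 higher were Col5a1 (0.15, SE 0.026) and Col5a2 (0.10, SE 0.032), which were lower in OE, the order of groups seen for Sparc. Nid2 fell in KD from 13.1 ± 2.10 CPM in WT to 0.251 ± 0.117 CPM (SD, n = 3 each), and Fn1, the fibronectin gene, was also lower (-0.40, SE 0.11).

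Receptors and uptake genes for SPARC and FSTL1 gave 2 calls higher and 4 lower among 11 tested in OE, with a median of -0.15. Vcam1, an adhesion molecule reported to bind SPARC, fell from a mean of 72.7 CPM in WT to 24.6 CPM in OE (log2 fold change -1.57, SE 0.076). Stab1, the scavenger receptor that takes up SPARC, was scarce, at 0.876 CPM in WT and 0.440 CPM in OE, and was lower in OE (-1.01, SE 0.21). Only in KD, at 1.05 CPM, did Stab1 reach the 1 CPM required of named genes. Cd14 was higher in OE (0.59, SE 0.17) and lower in KD (-0.69, SE 0.12). Dip2a, the FSTL1 receptor gene, did not pass in either comparison, with log2 fold changes of 0.043 in KD and -0.092 in OE; it is named outside the rule for named genes, after its values were seen. In KD, 3 of the 11 were called higher, Tlr4 (0.57, SE 0.15) and Itgav (0.28, SE 0.12) among them, and 1 lower.

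Growth factors and receptors linked to SPARC gave 3 calls higher and 8 lower among 14 tested in OE, with a median of -0.25. Tgfbr2, the type II receptor for TGF-beta, stood at 264 ± 13.7 CPM in WT, 372 ± 12.0 in KD and 114 ± 3.42 in OE (SD, n = 3 each). It thus rose in KD (0.49, SE 0.051) and fell in OE (-1.21, SE 0.050). Fgfr1 moved the other way, from 12.6 ± 2.39 CPM in WT to 4.25 ± 0.667 in KD and 50.5 ± 1.77 in OE. Vegfa, a growth factor that SPARC binds, was higher in both lines (0.45, SE 0.028 in KD and 0.40, SE 0.043 in OE). Pdgfrb was lower in OE (-1.42, SE 0.34). In KD, 3 of the 14 were called higher and 5 lower, with a median of -0.16.

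BMP signalling, which SMOC1 and FSTL1 antagonise, was described by its ligands, receptors and SMADs and by its targets. Of 10 tested ligands, receptors and SMADs, 2 were called higher and 4 lower in OE, with a median of -0.14, and 1 higher and 2 lower in KD, with a median of 0.048. Eng, the endoglin gene, was lower in both (-0.20, SE 0.051 in KD and -0.55, SE 0.054 in OE), the order WT, KD, OE seen for Smoc1. Bmp4, the ligand bound by FSTL1, was lower in both (-0.25, SE 0.0092 in KD and -0.21, SE 0.014 in OE), and Bmp6 was lower in OE (-0.30, SE 0.10). Of 14 tested targets and antagonists, 4 were called higher and 4 lower in OE, with a median of -0.016, and 5 higher and 3 lower in KD, with a median of 0.022. Id2, an inhibitor of helix-loop-helix factors, stood at 43.6 ± 2.14 CPM in WT, 34.7 ± 1.94 in KD and 87.8 ± 1.26 in OE (SD, n = 3 each). Smad6, a feedback inhibitor, fell from 118 ± 2.06 CPM in WT to 68.5 ± 1.43 in OE (log2 fold change -0.79, SE 0.023). Nog, which encodes the BMP antagonist noggin, rose from 0.204 ± 0.0807 CPM in WT to 2.79 ± 0.256 CPM in OE (3.76, SE 0.32). It reached the 1 CPM required of named genes only in OE, so a higher value there is partly built into its selection. Targets moved in both directions in OE while Smoc1 was lower.

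Proteases and inhibitors linked to the testicans gave 1 call higher and 9 lower among 12 tested in OE, with a median of -0.38. Timp3, a matrix-bound metalloproteinase inhibitor, fell from 462 ± 35.1 CPM in WT to 231 ± 4.94 CPM in OE (SD, n = 3 each). Mmp16 was higher (0.35, SE 0.14). In KD, 3 were called higher and 1 lower, with Timp2 (0.31, SE 0.018) and Mmp14 (0.19, SE 0.017) among the higher.

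Among 9 tested genes for other matricellular proteins, 1 was called higher and 5 lower in OE, with a median of -0.25, and 2 higher and 4 lower in KD, with a median of -0.22. Fbln5, an elastic fibre protein gene, stood at 50.0 ± 3.54 CPM in WT, 74.6 ± 1.84 in KD and 11.5 ± 0.481 in OE (SD, n = 3 each), again highest in KD and lowest in OE. Tnc, the tenascin C gene, was lower in both lines (-0.71, SE 0.072 in KD and -0.96, SE 0.081 in OE). Spp1, the osteopontin gene, was higher in OE (1.04, SE 0.098). Of 6 tested genes for other follistatin-domain proteins, 1 was called higher and 2 lower in OE, with a median of -0.17, and 2 higher and 1 lower in KD, with a median of 0.11. Igfbp7 fell from 394 ± 7.44 CPM in WT to 214 ± 6.37 CPM in OE (-0.88, SE 0.029), and Agrn, the agrin gene, rose in OE (0.30, SE 0.064).

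**Figure D5:**
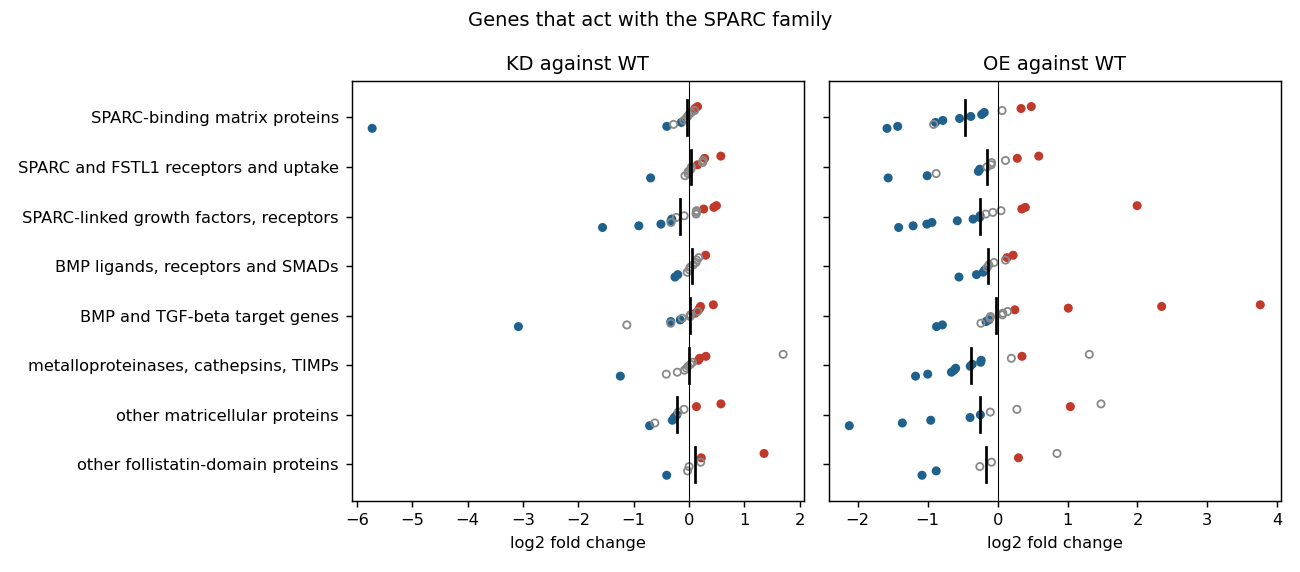
Log2 fold changes (horizontal axes) in KD against WT (left) and OE against WT (right) of the tested genes in the 8 lists (rows); red and blue points were called higher and lower, open points were not called, and black lines are medians. In OE the median of matrix proteins lies at -0.46 and that of proteases and inhibitors at -0.38, and the horizontal ranges of the panels differ.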

How the data were processed

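Poly-A RNA-seq of 9 libraries labelled MCEC, in 3 groups of 3, was analysed. The deposited table holds whole-number counts per Ensembl gene, not normalised; the submitters' processing notes name GRCm38 and mm10. The aligner, counting program, use of strand and annotation release are not given in the sources used here. The table has 55774 rows, of which 455 repeat 168 genes with identical counts; each gene was used once. All 9 columns matched a sample by name.

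Counts were fitted with edgeR 4.0.16 in R 4.3.3: filterByExpr (16955 genes), TMM scaling, a quasi-likelihood model of all 9 libraries whose single factor was the group, and Benjamini-Hochberg adjustment over all genes tested at 0.05. An exact permutation test of 3 against 3 libraries cannot reach below 0.1, so single genes were judged by this model. Percentages and folds are ratios of mean CPM, and log2 fold changes are fitted values. Each standard error combines the SDs of both groups' log2 CPM, computed with a prior count of 2. Levels between genes were compared per kb of merged exons in GENCODE M21. The procedure was also run on simulated counts with far fewer changed genes than were called here, and the outcome is not given. No replicate pair agreed within sampling noise. The median chi-square of a pair was 8.20 to 11.4 times that of sampling in WT. It was 2.98 to 3.87 times in KD and 3.00 to 5.5 times in OE.

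The members and the gene lists were chosen with earlier results of these data known. Named genes beyond the members and Zbtb46 were, per list and for KD and OE against WT, up to 2 called genes per direction with the largest change and at least 1 CPM in a group, and the 3 genes most like each member. Alternatives were other scalings (DESeq2 1.42.0 size factors, upper quartile, totals), filters and tools (DESeq2; limma 3.58.1 voom), fits of the 2 groups compared, a replicate block, a minimum fold change of 1.5, window medians removed and each library left out; leaving out ribosomal RNA genes was added after the data were seen.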

Additional observations from a re-analysis of the deposited data

How the results depend on the processing

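Over all alternatives no member changed the sign of its log2 fold change in any comparison: Smoc1 ran from -5.25 to -4.90 in OE and from -0.64 to -0.57 in KD against WT, Fstl1 from -0.71 to -0.61 in OE, Sparc from -0.51 to -0.41 in OE and from 0.076 to 0.13 in KD, and Spock2 from -2.09 to -1.08 in OE and from -1.35 to -0.39 in KD. The number of members called in KD against WT, 2 as reported, was 1 with upper-quartile factors, 1 with library totals alone and 1 with only the 2 groups compared, since Sparc no longer passed. Against a minimum fold change of 1.5 (edgeR's glmTreat) it was 0, with 0 at an unadjusted p under 0.05, whereas DESeq2 and limma-voom, without a minimum fold, each called 2. Leaving out 1 library gave 1 to 3 members in KD, 3 when WT replicate 2 was left out. The minimum fold change of 1.5 also lowered the members called in OE against WT to 1, the called genes of the 8 lists to 3 (KD against WT), 20 (OE against WT) and 24 (OE against KD), and the calls over all genes to 274, 794 and 1331; fewer calls follow from its construction. Library totals alone gave 25 list genes called in KD; the cause was not tested. No scaling moved the median of all genes by over 0.1. With the replicate number as a block, 2 members were called in KD and 3 in OE, the log2 fold change of Smoc1 in OE was -5.01, and the count of all genes called was 3574 in KD and 6111 in OE; no member changed its call. Same-numbered libraries shared no common deviation (r from -0.042 to 0.049, against -0.061 to 0.042 for other pairs), and 1 of 9 libraries correlated best with its own number in both other groups, so the numbers were not treated as pairs. Depth limits Spock2 and the 4 members that were not tested; a filter of 10 counts in every library gave no value for Spock2.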
